A study of Mus musculus with 10 samples.

Results

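The 51 genes described here build and police the mitotic spindle: mitotic kinases and cyclins, spindle motors, kinetochore, checkpoint, condensin and cytokinesis genes. They were chosen as a list of gene symbols with earlier results of these data known. Each symbol was matched to 1 row of a table of 55414 mouse genes, and all 51 passed the filter on low counts and were tested. RNA was measured by sequencing of polyadenylated transcripts in 10 libraries of macrophages taken from mouse spleen with magnetic beads against F4/80, which marks mature macrophages of the mouse. The 5 libraries called WT came from C57BL/6N mice, and the 5 called Fpr2KO are labelled as knockouts of Fpr2, which encodes formyl peptide receptor 2, a receptor of myeloid cells for formylated peptides and for annexin A1. The labels give no age, sex, strain background of the knockout, altered part of the gene or treatment, and they leave it unsaid whether each library is a different animal. The p-values therefore reflect the variation among these libraries alone, part or all of which may be technical.

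Cells enter mitosis when Cdk1, bound to A- and B-type cyclins, becomes active. Chromosomes are compacted by condensin, captured by the microtubules of the spindle at their kinetochores and held together until the last kinetochore is attached. The spindle checkpoint then releases Cdc20, the anaphase-promoting complex marks securin and cyclin B for destruction, the sister chromatids part, and a central spindle places the furrow that divides the cell. Most of these genes are transcribed in a burst in late G2 and mitosis and are low in resting cells. In mouse spleen the dividing cells known from other work include erythroblasts, which mature on macrophages of the red pulp, activated B cells, and a small share of macrophages themselves.

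The genotype label was checked on Fpr2 itself, which had between 325 and 574 reads in each WT library and 0 in each Fpr2KO library. Libraries held 15865820 to 19060188 counts, and a single mitotic gene had between 28 reads (Cdc25c) and 4049 reads (Mki67) in a library. Levels are given as CPM, read counts scaled by library size after TMM normalisation. Red pulp macrophage markers were present at 8522 to 11196 CPM in WT libraries and 8479 to 11081 CPM in the knockout in sum over 12 genes, and 12 of 12 had reads in every library. The share of counts from mitochondrially encoded genes was 5.51 ± 0.480% in WT and 4.13 ± 1.10% in Fpr2KO (SD, n = 5), with 6.04% in Fpr2KO replicate 2, and its part in the mitotic values was not tested.

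In Fpr2KO 48 of the 51 mitotic genes had a higher estimate than in WT, against 53.2% of the 14669 genes tested. The 51 genes were chosen with earlier results of these data known, so shares of all genes set beside them are descriptions, not tests. The median log2 fold change was 0.49 over the 51 genes, with a range of -0.16 to 0.75, and 0.013 over all genes tested. At an unadjusted p under 0.05 by edgeR, 41 of the 51 were higher and 0 lower in Fpr2KO, where 4.88% of all genes tested were higher and 4.92% lower. After adjustment over all genes by the Benjamini-Hochberg method, 0 of the 51 stayed under an FDR (false discovery rate) of 0.05 in edgeR, where 0.0682% of all genes passed and 0.00682% passed as higher. Limma voom also called 0 of them (0.00682% of all genes higher), and DESeq2 called 9, all higher: Cdca3, Kif22, Tpx2, Ccnb1, Cdk1, Ccna2, Ube2c, Aurkb and Birc5 (0.524% of all genes were called higher by DESeq2). The edgeR fit with no filter on low counts called 3, Cdca3, Kif22 and Ccnb1, with 0.0909% of all genes called higher. No single gene of the group is therefore reported as changed, and the values below are estimates with their errors. In bulk RNA a larger number of dividing cells cannot be told apart from more of these transcripts in each cell.

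**Figure D1:**
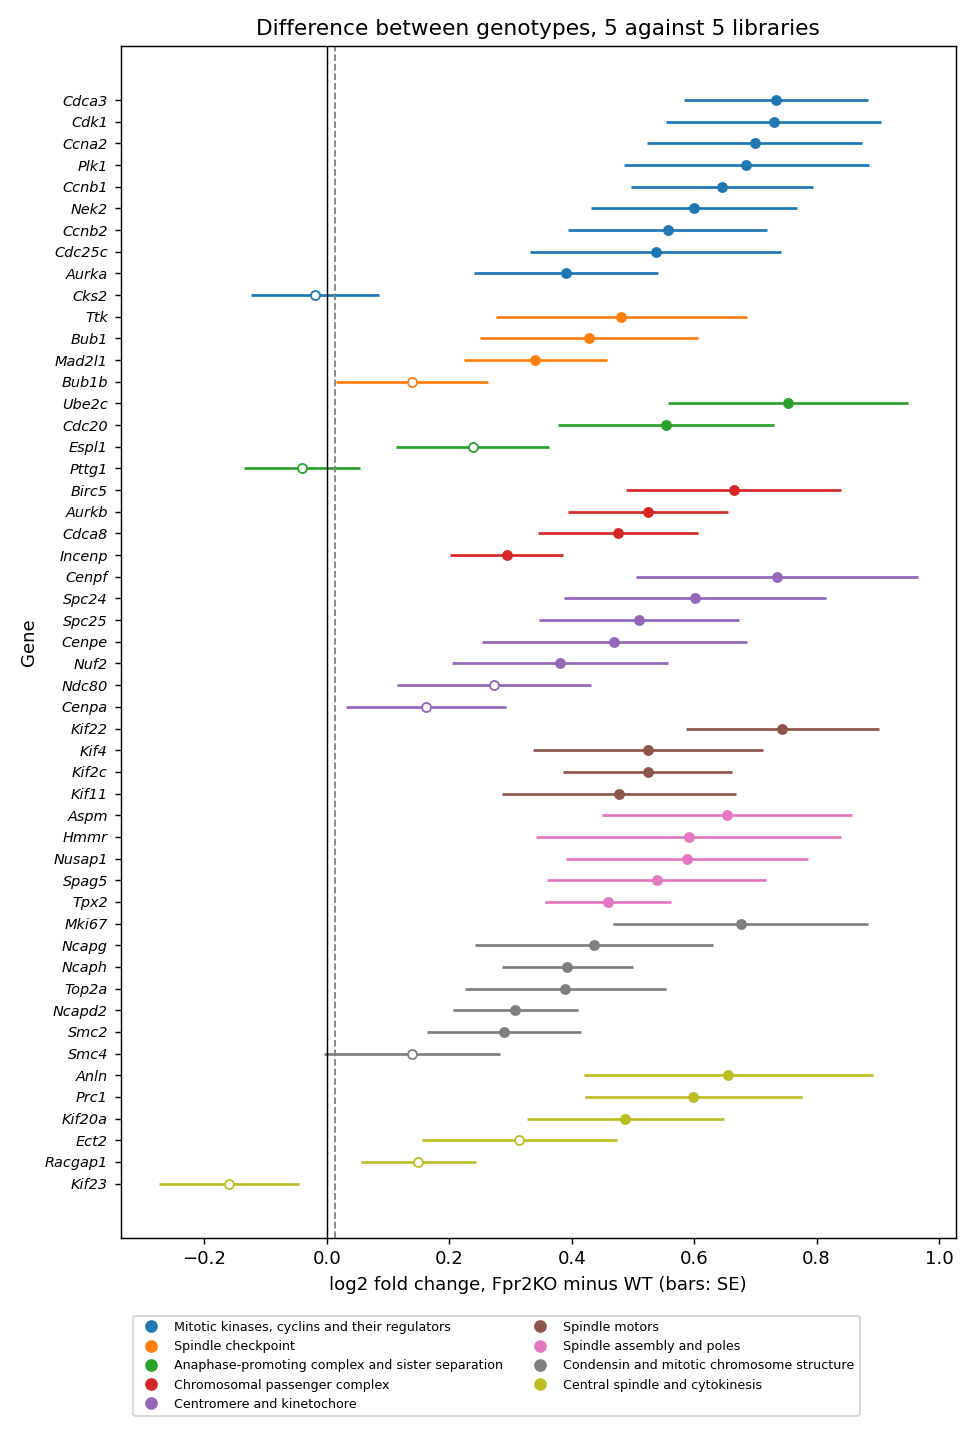
Log2 fold change of each mitotic gene, Fpr2KO minus WT, with its standard error, coloured by role; filled points have an unadjusted p under 0.05, and the dashed line is the median of all genes tested (0.013). The estimates run from -0.16 (Kif23) to 0.75 (Ube2c), and 3 of 51 lie below 0.

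Promoters of mitotic genes are known for a shared layout, in which the cell cycle genes homology region (CHR), read by the DREAM and MuvB complexes, lies close to the transcription start and downstream of CCAAT boxes bound by NF-Y. RefSeq promoter windows of 300 bases, from 250 before to 50 after the start (build GRCm38.p6), were found for 43 of the 51 genes. The genes without a window were Ccna2, Cdc25c, Tpx2, Aurkb, Incenp, Spc24, Smc4 and Kif20a. The windows of 7 genes are printed 5′ to 3′ on the strand of the gene: the 4 with a window that had the smallest p-values (Cdca3, Kif22, Ccnb1 and Cdk1) and the 3 whose estimate was below 0 (Kif23, Pttg1 and Cks2). Capitals mark the letters TTTGAA or TTCGAA (CHR), CCAAT, and TTTGGCGC or TTTCGCGC (the E2F motif), each on either strand.
Cdca3, chr6:124829926-124830225, plus strand: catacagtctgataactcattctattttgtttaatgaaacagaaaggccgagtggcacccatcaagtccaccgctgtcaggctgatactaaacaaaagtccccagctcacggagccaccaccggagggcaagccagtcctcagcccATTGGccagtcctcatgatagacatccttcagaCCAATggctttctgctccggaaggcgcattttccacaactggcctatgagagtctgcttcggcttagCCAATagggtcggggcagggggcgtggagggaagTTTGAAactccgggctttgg
Kif22, chr7:127042371-127042670, minus strand: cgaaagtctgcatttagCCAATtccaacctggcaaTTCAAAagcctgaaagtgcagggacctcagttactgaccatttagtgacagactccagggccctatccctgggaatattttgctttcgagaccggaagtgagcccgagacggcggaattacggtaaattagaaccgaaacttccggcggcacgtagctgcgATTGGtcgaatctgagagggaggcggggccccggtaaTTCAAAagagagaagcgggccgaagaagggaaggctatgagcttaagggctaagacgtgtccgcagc
Ccnb1, chr13:100786437-100786736, minus strand: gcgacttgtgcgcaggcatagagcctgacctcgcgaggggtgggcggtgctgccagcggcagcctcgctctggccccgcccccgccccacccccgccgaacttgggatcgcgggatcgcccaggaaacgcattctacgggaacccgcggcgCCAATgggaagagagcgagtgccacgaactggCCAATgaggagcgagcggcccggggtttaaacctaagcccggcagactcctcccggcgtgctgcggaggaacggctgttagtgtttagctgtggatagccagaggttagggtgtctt
Cdk1, chr10:69352863-69353162, minus strand: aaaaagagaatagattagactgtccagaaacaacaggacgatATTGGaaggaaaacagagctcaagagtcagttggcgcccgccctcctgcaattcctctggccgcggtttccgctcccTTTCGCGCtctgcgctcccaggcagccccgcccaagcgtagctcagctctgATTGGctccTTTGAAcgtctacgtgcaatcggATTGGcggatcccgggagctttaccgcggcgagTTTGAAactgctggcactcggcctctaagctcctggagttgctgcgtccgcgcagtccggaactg
Kif23, chr9:61946750-61947049, minus strand: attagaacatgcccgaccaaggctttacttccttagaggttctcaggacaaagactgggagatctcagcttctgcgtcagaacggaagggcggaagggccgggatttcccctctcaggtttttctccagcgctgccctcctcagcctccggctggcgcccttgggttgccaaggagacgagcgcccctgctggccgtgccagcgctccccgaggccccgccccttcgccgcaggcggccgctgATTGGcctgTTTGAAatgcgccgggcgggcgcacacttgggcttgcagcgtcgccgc
Pttg1, chr11:43425932-43426231, minus strand: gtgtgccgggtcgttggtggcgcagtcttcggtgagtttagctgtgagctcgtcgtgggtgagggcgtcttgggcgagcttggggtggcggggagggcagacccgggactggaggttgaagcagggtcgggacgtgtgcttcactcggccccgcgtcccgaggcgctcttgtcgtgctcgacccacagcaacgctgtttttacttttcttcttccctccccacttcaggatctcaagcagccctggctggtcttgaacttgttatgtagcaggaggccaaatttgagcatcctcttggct
Cks2, chr13:51644982-51645281, plus strand: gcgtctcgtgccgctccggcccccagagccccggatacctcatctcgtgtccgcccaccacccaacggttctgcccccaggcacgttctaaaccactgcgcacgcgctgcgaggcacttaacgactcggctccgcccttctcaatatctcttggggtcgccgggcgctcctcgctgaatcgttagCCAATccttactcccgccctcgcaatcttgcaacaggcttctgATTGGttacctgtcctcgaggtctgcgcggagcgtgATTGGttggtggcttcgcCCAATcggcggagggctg

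Positions are counted from the RefSeq transcription start that each window was built on. In the Cdk1 window CHR matches stand at -71 and -15, CCAAT boxes at -208, -80 and -48, and an E2F match at -131. Kif22 has CHR matches at -215 and -17 and CCAAT boxes at -233 and -54, and Cdca3 has a CHR match at position 31 with CCAAT boxes at -104, -71 and -4. The Ccnb1 window holds CCAAT boxes at -99 and -67 and neither TTTGAA nor TTCGAA. Other spellings of the CHR were not searched in any window, so a window without a match is not shown to lack a CHR. Among the genes with estimates below 0, Kif23 has both a CHR match (position 3) and a CCAAT box (-7). The Cks2 window has 4 CCAAT boxes and no CHR letters, and the Pttg1 window has none of these letters. The windows of Pttg1, Cdca3, Cdca8, Kif2c and Kif4 lie wholly inside the annotated span of their genes, downstream of its 5′ end. For these genes the sequence upstream of that end was not searched. The search used both strands, different motifs can share no more than an end letter, and a match is a string of letters, not a measured site.

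Over all member windows, counting 2 each for Ect2 and Prc1, 35 of 45 (77.78%) held the CHR letters, against 14.34% of the 13281 windows of genes tested and 19.23% of all 32851 windows. CCAAT was found in 36 of 45 (80.0%), against 37.63% of windows of genes tested, and both together in 32 of 45 (71.11%), against 5.9%. The E2F letters were found in 2 of 45 windows (4.44%), against 1.48%. Member windows and windows of genes tested had a median GC content of 59.0% and 60%. Within the group, the 33 genes with a CHR match had a median log2 fold change of 0.51 and the 10 without one a median of 0.43. For CCAAT the medians were 0.50 in the 34 genes with a match and 0.39 in the 9 without. Windows that lie inside a gene, such as that of Pttg1, were counted like the others. These are descriptions of letters and estimates, with no test.

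**Figure D2:**
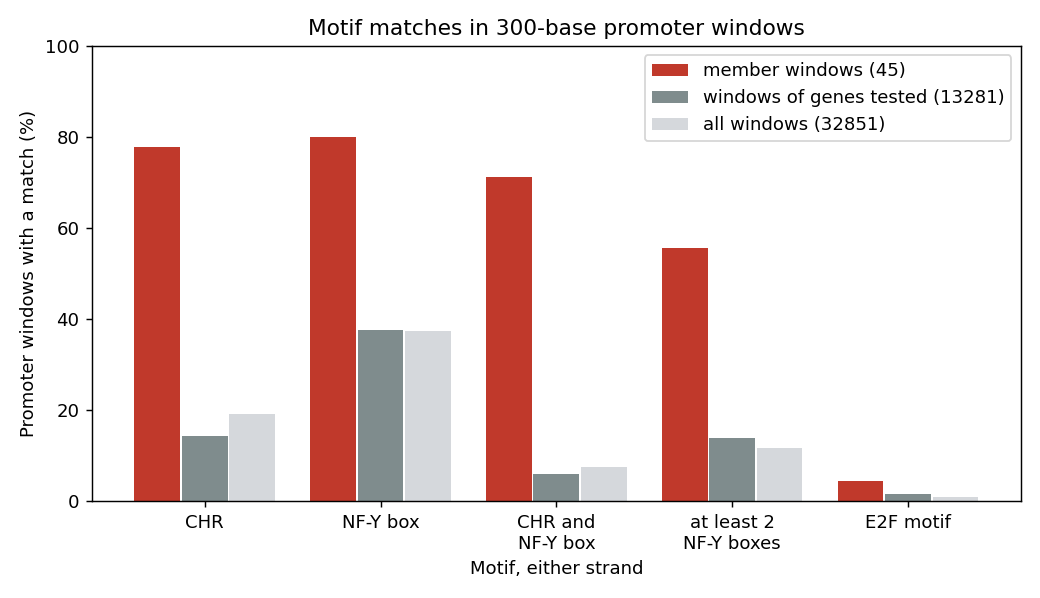
Share of 300-base promoter windows (in percent) that hold each motif on either strand, for windows of the mitotic genes (45), of genes tested (13281) and of all genes in the table (32851); the NF-Y box is CCAAT. CHR letters were found in 77.78% of the windows of mitotic genes and in 14.34% of those of genes tested.

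Of the 10 kinases, cyclins and their regulators, 9 had a higher estimate with an unadjusted p under 0.05, and the median log2 fold change was 0.62. Cdca3 (chromosome 6, 124829547 to 124833701; gene coordinates are those of GRCm38), which helps to remove the mitotic inhibitor Wee1, was measured at 10.9, 10.3, 9.19, 12.7 and 16.1 CPM in WT replicates 1 to 5 and at 24.5, 20.0, 17.5, 19.2 and 17.3 CPM in Fpr2KO replicates 1 to 5. All 5 Fpr2KO libraries lay above the highest WT library, replicate 5 (log2 fold change 0.73, SE 0.15, FDR = 0.112 by edgeR). Such a complete order, Fpr2KO above WT, was found for 6 of the 51 genes and for 0.825% of all genes tested, and the reverse order for 0 of the 51 and 0.566% of all genes. Cdk1 (chromosome 10, 69335146 to 69352938), the kinase that drives mitotic entry, was measured at 9.61, 9.62, 8.14, 12.1 and 16.4 CPM in WT replicates 1 to 5 and at 22.6, 20.6, 15.6, 18.0 and 15.9 CPM in Fpr2KO replicates 1 to 5. The groups overlapped by 1 library, since WT replicate 5 exceeded Fpr2KO replicates 3 and 5 (log2 fold change 0.73, SE 0.18, FDR = 0.177 by edgeR). Its partner cyclin B1, Ccnb1 (chromosome 13, 100778650 to 100786570), was measured at 9.74, 9.83, 9.13, 11.7 and 13.9 CPM in WT replicates 1 to 5 and at 17.4, 22.1, 15.7, 16.4 and 13.5 CPM in Fpr2KO replicates 1 to 5. WT replicate 5 again lay inside the range of the Fpr2KO libraries (log2 fold change 0.65, SE 0.15, FDR = 0.165 by edgeR). Of the 31-base sequences of Ccnb1 27.8% also occur in other annotated genes, most in the pseudogene Ccnb1-ps, so its count is uncertain. Cyclin A2, Ccna2, was measured at 22.8, 21.9, 15.3, 26.6 and 35.8 CPM in WT replicates 1 to 5 and at 46.3, 42.0, 37.4, 38.2 and 35.2 CPM in Fpr2KO replicates 1 to 5. Only the lowest Fpr2KO library, replicate 5, lay under the highest WT library (log2 fold change 0.70, SE 0.18, FDR = 0.201 by edgeR).

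Cyclin B2 (Ccnb2, 0.56), the polo-like kinase Plk1 (0.69), the centrosomal kinase Nek2 (0.60), the phosphatase Cdc25c that activates Cdk1 (0.54) and Aurora A (Aurka, 0.39) had the other positive log2 fold changes of this role. Cks2, a small subunit of cyclin-dependent kinase complexes, was the 1 gene of the role with an estimate below 0. It was measured at 31.7, 28.1, 24.7, 24.6 and 27.8 CPM in WT replicates 1 to 5 and at 28.5, 32.1, 25.9, 23.6 and 24.9 CPM in Fpr2KO replicates 1 to 5. The groups overlapped over most of their range (log2 fold change -0.019, 95% interval -0.24 to 0.20, FDR = 0.966 by edgeR). Other annotated genes share 31.7% of the 31-base sequences of Cks2, so reads of copies may enter its count. Exon bases are overlapped by a gene on the other strand in Ccna2 (12.5%, Exosc9), Cdc25c (12.7%, Gm3550), Plk1 (7.09%, Gm44985) and Nek2 (6.60%, Gm38037), so these counts are uncertain as well. Plk1 also shares 18.7% of its 31-base sequences, most with Plk-ps1.

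The spindle checkpoint holds anaphase back until all kinetochores are attached, and 3 of its 4 genes had a higher estimate with an unadjusted p under 0.05 (median log2 fold change 0.38). Mad2l1, which encodes the protein that sequesters Cdc20, was measured at 14.8, 19.3, 14.5, 16.3 and 19.02 CPM in WT replicates 1 to 5 and at 22.7, 24.9, 19.7, 21.0 and 18.1 CPM in Fpr2KO replicates 1 to 5. WT replicates 2 and 5 exceeded the lowest Fpr2KO library (log2 fold change 0.34, SE 0.12, FDR = 0.373 by edgeR). The checkpoint kinases Ttk and Bub1 had log2 fold changes of 0.48 and 0.43, and Bub1b, the BubR1 subunit of the checkpoint complex, one of 0.14 (FDR = 0.725 by edgeR). Single libraries weighed on both Bub genes: Bub1 was at 0.26 without Fpr2KO replicate 2, and Bub1b at 0.066 without WT replicate 1, 0.069 without Fpr2KO replicate 4 and 0.23 without WT replicate 5.

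Genes of the anaphase-promoting complex and of sister separation were split. Ube2c, the ubiquitin-conjugating enzyme that works with the complex, was measured at 17.2, 14.6, 10.4, 21.6 and 22.4 CPM in WT replicates 1 to 5 and at 34.6, 35.8, 26.2, 24.3 and 24.7 CPM in Fpr2KO replicates 1 to 5. It had the largest log2 fold change of the 51 genes and a complete order of the groups, with WT replicate 5 just below the lowest Fpr2KO library (log2 fold change 0.75, SE 0.20, FDR = 0.214 by edgeR). The exons of Ube2c overlap those of Tnnc2 on the other strand over 22.8% of their bases, and without a stated strand setting reads of the pair cannot be told apart. Cdc20, the activator of the complex, had a log2 fold change of 0.55 and Espl1, the protease separase, one of 0.24 (FDR = 0.556 by edgeR). Cdc20 shares 26.7% of its 31-base sequences with other annotated genes, most with Gm7856, and its count is uncertain for that reason. Pttg1, which encodes securin, the inhibitor of separase, was measured at 36.6, 33.4, 34.0, 35.6 and 29.3 CPM in WT replicates 1 to 5 and at 35.6, 36.4, 33.7, 27.3 and 31.2 CPM in Fpr2KO replicates 1 to 5. The groups overlapped, with the highest value in a WT library (log2 fold change -0.041, 95% interval -0.24 to 0.16, FDR = 0.909 by edgeR).

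The chromosomal passenger complex, which corrects faulty attachments and later moves to the midzone, had 4 of 4 genes higher at an unadjusted p under 0.05 (median log2 fold change 0.50). Its kinase Aurkb was measured at 11.1, 10.9, 9.78, 12.7 and 15.6 CPM in WT replicates 1 to 5 and at 17.8, 17.2, 15.6, 20.1 and 15.9 CPM in Fpr2KO replicates 1 to 5. WT replicate 5 exceeded the lowest Fpr2KO library by a small margin (log2 fold change 0.52, SE 0.13, FDR = 0.185 by edgeR). Birc5, or survivin, which brings the complex to centromeres, was measured at 9.61, 8.10, 7.67, 10.4 and 15.8 CPM in WT replicates 1 to 5 and at 19.3, 15.0, 14.5, 17.5 and 15.5 CPM in Fpr2KO replicates 1 to 5. WT replicate 5 exceeded Fpr2KO replicates 2, 3 and 5, and the other 4 WT values were below the lowest Fpr2KO value. Over all 10 libraries the difference did not pass the threshold (log2 fold change 0.66, SE 0.18, FDR = 0.209 by edgeR), whereas without WT replicate 5 it did (log2 fold change 0.86, FDR = 0.0208 by edgeR). Cdca8, or borealin, was measured at 11.3, 13.6, 10.9, 14.9 and 16.8 CPM in WT replicates 1 to 5 and at 22.2, 18.7, 18.0, 16.4 and 18.6 CPM in Fpr2KO replicates 1 to 5. Only Fpr2KO replicate 4 lay below WT replicate 5 (log2 fold change 0.48, SE 0.13, FDR = 0.235 by edgeR). The scaffold Incenp, at 42.4 ± 4.68 CPM in WT libraries and 52.0 ± 4.83 CPM in the knockout (SD, n = 5), had the smallest log2 fold change of the complex (0.29).

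At centromeres and kinetochores 7 of 7 genes had higher estimates and 5 an unadjusted p under 0.05 (median log2 fold change 0.47). Cenpf, a large protein of the outer kinetochore, was measured at 9.16, 8.59, 6.03, 10.5 and 15.4 CPM in WT replicates 1 to 5 and at 19.2, 22.4, 14.9, 14.7 and 11.8 CPM in Fpr2KO replicates 1 to 5. Its values spread widely in both groups, and WT replicate 5 lay above 3 of the Fpr2KO libraries (log2 fold change 0.73, SE 0.23, FDR = 0.331 by edgeR). The Ndc80 complex, the main microtubule grip of the kinetochore, had log2 fold changes of 0.60 for Spc24, 0.51 for Spc25, 0.38 for Nuf2 and 0.27 for Ndc80 itself. The kinetochore motor Cenpe had one of 0.47, and Cenpa, the centromeric histone H3 variant, one of 0.16. Of these, Ndc80 (FDR = 0.599) and Cenpa (FDR = 0.703) were the ones whose unadjusted p in edgeR was not under 0.05. The log2 fold change of Ndc80 was 0.14 without WT replicate 3. That of Cenpa was 0.28 without WT replicate 1, 0.080 without WT replicate 3 and 0.10 without Fpr2KO replicate 1.

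Spindle motors had 4 of 4 genes higher at an unadjusted p under 0.05 (median log2 fold change 0.52). Kif22 (chromosome 7, 127027729 to 127042471), a kinesin that pushes chromosome arms outwards, was measured at 7.76, 7.40, 8.14, 11.1 and 13.6 CPM in WT replicates 1 to 5 and at 16.3, 15.9, 15.1, 17.8 and 15.2 CPM in Fpr2KO replicates 1 to 5. The groups did not overlap (log2 fold change 0.74, SE 0.16, FDR = 0.124 by edgeR). Kif2c, a kinesin that takes microtubules apart at centromeres, was measured at 5.41, 5.94, 5.27, 6.34 and 6.47 CPM in WT replicates 1 to 5 and at 9.56, 9.82, 7.67, 8.80 and 6.57 CPM in Fpr2KO replicates 1 to 5. Its groups did not overlap either, although Fpr2KO replicate 5 was only slightly above WT replicate 5 (log2 fold change 0.52, SE 0.14, FDR = 0.209 by edgeR). Kif4, which binds chromosome arms, and Kif11, the motor that pushes the poles apart, had log2 fold changes of 0.52 and 0.48. The exons of Kif4 overlap Pdzd11 on the other strand over 15.1% of their bases.

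All 5 genes of spindle assembly and poles were higher at an unadjusted p under 0.05 (median log2 fold change 0.59). Tpx2 (chromosome 2, 152847964 to 152895321), which activates Aurora A and nucleates microtubules around chromosomes, was measured at 20.6, 20.0, 17.4, 22.7 and 25.8 CPM in WT replicates 1 to 5 and at 31.3, 30.5, 27.1, 28.6 and 29.0 CPM in Fpr2KO replicates 1 to 5. Every Fpr2KO library exceeded every WT library, and its standard error was among the smallest of the group (log2 fold change 0.46, SE 0.10, FDR = 0.151 by edgeR). Log2 fold changes were 0.65 for Aspm, a spindle pole protein, 0.59 for Hmmr, 0.59 for the microtubule bundler Nusap1 and 0.54 for Spag5, or astrin. Without WT replicate 3 that of Hmmr was 0.39.

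Among condensin and chromosome structure genes 6 of 7 were higher at an unadjusted p under 0.05 (median log2 fold change 0.39). Ncaph, the kleisin subunit that closes the condensin I ring, was measured at 15.4, 13.7, 12.9, 14.8 and 16.9 CPM in WT replicates 1 to 5 and at 19.1, 23.2, 17.4, 18.97 and 18.3 CPM in Fpr2KO replicates 1 to 5. The groups did not overlap (log2 fold change 0.39, SE 0.11, FDR = 0.231 by edgeR). Ncapg (0.44), Ncapd2 (0.31) and Smc2 (0.29), the other subunits of condensin I beside Smc4, had smaller or more variable log2 fold changes. Smc4 was measured at 125, 113, 75.8, 93.0 and 113 CPM in WT replicates 1 to 5 and at 108, 152, 104, 113 and 94.7 CPM in Fpr2KO replicates 1 to 5. Both groups were widely spread and overlapped (log2 fold change 0.14, 95% interval -0.17 to 0.45, FDR = 0.769 by edgeR). Without Fpr2KO replicate 2 the log2 fold change was 0.0075 for Smc4 and 0.28 for Ncapg, and without WT replicate 3 it was 0.039 for Smc4. The exons of Ncapg overlap Lcorl on the other strand over 13.4% of their bases. Mki67, the proliferation antigen that coats mitotic chromosomes, was measured at 120.0 ± 38.9 CPM in WT libraries and 192 ± 39.0 CPM in the knockout (SD, n = 5), with a log2 fold change of 0.68 (SE 0.21). Top2a, the topoisomerase that untangles sister chromatids, had one of 0.39.

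The central spindle and cytokinesis genes divided into 2 sets of 3. Prc1, which bundles the antiparallel microtubules of the midzone, was measured at 15.1, 11.6, 13.1, 15.8 and 25.1 CPM in WT replicates 1 to 5 and at 25.5, 28.9, 21.7, 24.5 and 21.8 CPM in Fpr2KO replicates 1 to 5. WT replicate 5 exceeded 3 of the 5 Fpr2KO libraries (log2 fold change 0.60, SE 0.18, FDR = 0.285 by edgeR). Anln, or anillin, a scaffold of the furrow, and the midzone kinesin Kif20a had log2 fold changes of 0.66 and 0.49, both with an unadjusted p under 0.05. Ect2, which activates RhoA at the furrow, had one of 0.31 (FDR = 0.539 by edgeR), and Racgap1, 1 of the subunits of centralspindlin, one of 0.15 (FDR = 0.630 by edgeR). Kif23, the kinesin of centralspindlin, had the lowest log2 fold change of the 51 genes, at 53.2 ± 6.45 CPM in WT libraries and 47.6 ± 7.89 CPM in the knockout (SD, n = 5) (log2 fold change -0.16, 95% interval -0.41 to 0.085, FDR = 0.665 by edgeR). Leaving out Fpr2KO replicate 2 gave 0.063 for Racgap1 and -0.27 for Kif23. Kif23 was at -0.10 without WT replicate 1 and -0.092 without Fpr2KO replicate 4, and Ect2 at 0.20 without WT replicate 3. Genes on the other strand overlap 29.3% of the exon bases of Kif20a (Cdc23) and 11.1% of those of Prc1 (Rccd1), so these counts are uncertain. The difference between Kif23 and Racgap1, which work as 1 complex, and the rest was not tested.

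**Figure D3:**
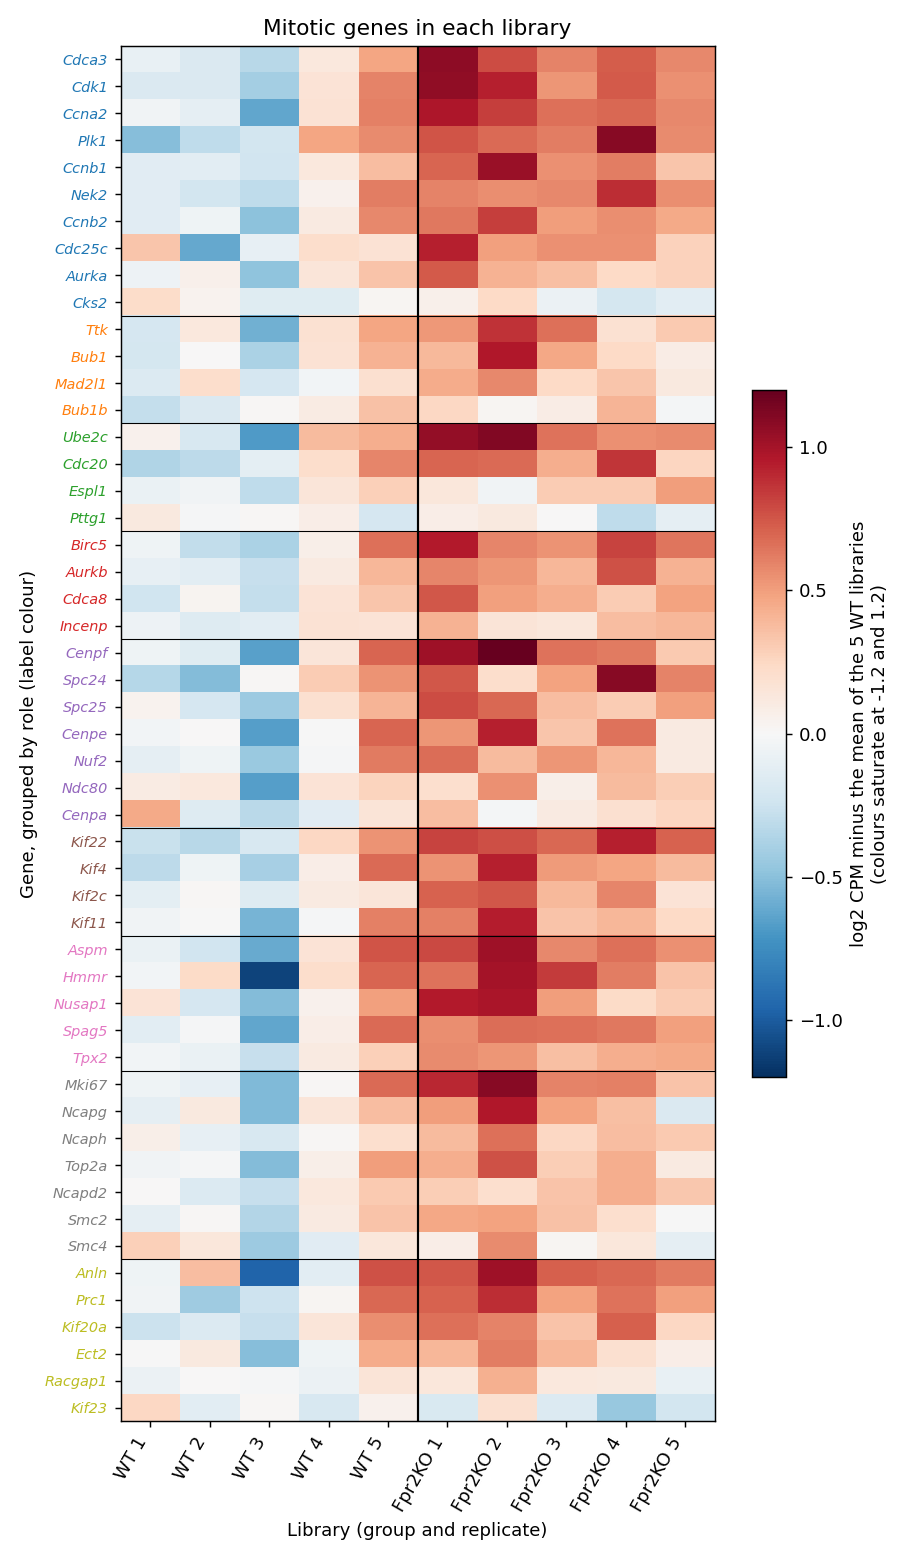
Log2 CPM of each mitotic gene (rows, grouped and coloured by role) in each library (columns), relative to the mean of the 5 WT libraries. WT replicate 3 was the lowest of the 10 libraries for 39 of the 51 genes, and WT replicate 5 the highest of the WT libraries for 43.

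The libraries differed among themselves within each genotype. Summed over the 51 genes, the level was 1113, 1060.2, 871, 1140.0 and 1446 CPM in WT replicates 1 to 5 and 1572, 1709.9, 1389.7, 1444 and 1292 CPM in Fpr2KO replicates 1 to 5. The mean was 1126 ± 207 CPM in the WT libraries and 1481 ± 163 CPM in the knockout (SD, n = 5), or 0.111 ± 0.0213% and 0.150 ± 0.0120% of all counts. WT replicate 5 thus lay above Fpr2KO replicates 3, 4 and 5. WT replicate 3 was the lowest of the 10 libraries for 39 of the 51 genes, and Fpr2KO replicate 2 the highest for 26. Within WT, replicate 5 was highest for 43 genes, and within Fpr2KO, replicate 5 was lowest for 29. The number of mitotic genes above their own median of 10 libraries was 42 in WT replicate 5, between 2 and 6 in the other 4 WT libraries, and between 21 and 48 in the Fpr2KO libraries.

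In a fit without WT replicate 5, edgeR called 13 mitotic genes in place of 0: Kif22, Birc5, Cdca3, Prc1, Ccna2, Cdk1, Nek2, Mki67, Aspm, Spag5, Tpx2, Ccnb2 and Aurkb. All 13 were higher in Fpr2KO, and 0.228% of all genes were called higher in that comparison. Every other fit that left out 1 library called 0 mitotic genes. WT replicate 5 was the highest WT library for 43 of the 51 genes, so leaving it out widens the gap between the groups for most of them. The number of genes with a complete order of the groups moved from 6 to 34 of 51 without it, where 1.77% of all genes had that order. It was 11 without Fpr2KO replicate 5 (1.45% of all genes) and 10 with upper quartile normalisation of all libraries (0.988%). Without WT replicate 5, 43 genes were higher at an unadjusted p under 0.05 (4.14% of all genes were higher). The median log2 fold change was then 0.61 in place of 0.49. Without WT replicate 3, the lowest library, the median was 0.40, and 32 genes were higher at an unadjusted p under 0.05 (3.78% of all genes were higher). In that fit 0 mitotic genes passed the FDR by edgeR, where 0.0135% of all genes passed as higher and 12 genes passed in either direction. The biological coefficient of variation, the spread between replicates beyond counting error, had a median of 0.186 over the mitotic genes and 0.151 over all genes tested.

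Levels between genes can be compared per kilobase of exon (RPKM, here from TMM-scaled counts and the union of annotated exons). In WT the highest was Cks2 with 39.5 ± 4.25 RPKM (SD, n = 5), followed by Smc4 with 19.9 ± 3.71, Pttg1 with 16.9 ± 1.41 and Mki67 with 11.9 ± 3.87. Cks2 lay above the others by more than the SDs, while the neighbours Smc4 and Pttg1, and Pttg1 and Mki67, overlapped within 1 SD of their means. The lowest were Cdc25c with 0.484 ± 0.113, Cenpf with 0.645 ± 0.225 and Ttk with 0.676 ± 0.179 RPKM, whose spreads overlapped as well. Among the 17 genes with the highest WT level per length the median log2 fold change was 0.29 and 10 had an unadjusted p under 0.05. In the middle 17 the median was 0.49 with 15, and in the lowest 17 it was 0.54 with 16. The same WT values rank the genes and enter their fold changes, so the ranking and the estimates are not independent. These medians and counts describe the estimates, with no test.

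Other genes of the pathway came from lists chosen with earlier results of these data known. Over all genes tested, 53.2% had a higher estimate, and at an unadjusted p under 0.05 4.88% were higher and 4.92% lower. Of 77 further mitotic genes 72 had higher estimates, 18 with an unadjusted p under 0.05 and 0 lower, and the median log2 fold change was 0.24. The smallest p-values were those of Cdc25b, a phosphatase that activates Cdk1 (26.4 ± 5.42 and 37.0 ± 3.40 CPM in WT and Fpr2KO; SD, n = 5), the phosphatase Cdkn3 (1.85 ± 0.881 and 3.89 ± 0.789 CPM), the kinesin Kif18b (5.74 ± 2.08 and 9.49 ± 0.407 CPM) and Fbxo5, an inhibitor of the anaphase-promoting complex (8.02 ± 1.12 and 11.2 ± 1.37 CPM). Their log2 fold changes were 0.49, 1.06, 0.73 and 0.47. Of 22 transcriptional regulators 16 had higher and 6 lower estimates (median 0.10), and 7 were higher and 0 lower at an unadjusted p under 0.05. The smallest p-values were those of E2f2 (log2 fold change 0.53), Tfdp2 (0.67), Mybl2 (0.51) and Foxm1 (0.29). Mybl2 and Foxm1 encode the activators B-Myb and FoxM1 of late cell cycle promoters. Among 15 genes of G1 control 10 had higher and 5 lower estimates (median 0.10). At an unadjusted p under 0.05, 0 were lower and 3 higher, namely the inhibitor Cdkn2c (0.59) and the E-type cyclins Ccne2 (0.66) and Ccne1 (0.38). The inhibitor Cdkn1a had a log2 fold change of -0.39 (FDR = 0.531 by edgeR).

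All 35 DNA replication genes had higher estimates, 18 with an unadjusted p under 0.05 (median log2 fold change 0.28). Rrm2, a subunit of ribonucleotide reductase, was measured at 28.7 ± 7.44 and 43.8 ± 3.01 CPM in WT and Fpr2KO (SD, n = 5; log2 fold change 0.61). Uhrf1 (0.31), the ligase Lig1 (0.33) and the origin factor Orc1 (0.97) followed. In these 4 lists 0 genes passed the FDR by edgeR or by limma voom, whereas DESeq2 called Cdc25b, Cdkn3, Kif18b, E2f2, Tfdp2 and Rrm2. Cdkn3, Kif18b, Cdkn2c and Rrm2 also passed by edgeR without WT replicate 5. Whether mitotic and replication genes differed in size of effect was not tested.

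Markers of other cells that an F4/80 isolate can hold were partly higher in the same libraries as the mitotic genes. For all marker lists here and below, the shares over all genes tested were 53.2% with a higher estimate, and 4.88% higher and 4.92% lower at an unadjusted p under 0.05. For erythroid cells 19 of 19 markers had higher estimates in Fpr2KO, 18 with an unadjusted p under 0.05 and 0 past the FDR by edgeR or limma voom, while DESeq2 called Tspan33, Gata1 and Car1, and edgeR called Tspan33 without WT replicate 5 and Car1 without WT replicate 3. Of the 19 markers 18 had reads in every library. Their summed level was 4456, 4662, 1754, 6805 and 4274 CPM in WT replicates 1 to 5 and 11423, 10773, 7919, 4895 and 7331 CPM in Fpr2KO replicates 1 to 5. WT replicate 3 was lowest and Fpr2KO replicates 1 and 2 highest, as for the mitotic sum, but WT replicate 5 was not high by this sum, and Fpr2KO replicate 4 lay within the WT range. Measured as the mean log2 CPM of the list, which weights each marker equally, WT replicate 5 was the highest WT library, 0.89 above the WT mean, and Fpr2KO libraries lay 0.99 to 2.03 above it. Gata1, the master regulator of the erythroid lineage, was measured at 4.33 ± 1.05 and 7.30 ± 1.22 CPM in WT and Fpr2KO (SD, n = 5), and the carbonic anhydrase Car1 at 3.83 ± 2.15 and 14.2 ± 4.09 CPM. The part of erythroid cells in the mitotic values was not tested.

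B cell markers had 10 of 10 higher estimates, 3 with an unadjusted p under 0.05, at 3639.9 ± 683 CPM in the WT libraries and 4217 ± 472 CPM in the knockout in sum (SD, n = 5). They were highest in Fpr2KO replicate 4 and, within WT, in replicate 5. Germinal centre B cell markers, 10 of 10 with reads in every library, stood at 147 ± 9.98 CPM in the WT libraries and 146 ± 5.33 CPM in the knockout, and 0 of 10 had an unadjusted p under 0.05. Plasma cell markers stood at 5127 ± 1719.9 CPM in the WT libraries and 5138 ± 1627 CPM in the knockout (0 of 10). T cell markers stood at 182 ± 23.0 CPM in the WT libraries and 188 ± 9.25 CPM in the knockout (0 of 10). NK cell markers stood at 38.7 ± 4.98 CPM in the WT libraries and 42.1 ± 4.24 CPM in the knockout (1 of 10). Estimates were higher for 8 of 10 germinal centre, 6 of 10 plasma cell, 9 of 10 T cell and 8 of 10 NK cell markers. Most of the T cell sum came from Cd4 and Cd8a (107 and 33.1 CPM in WT), and most of the NK cell sum from Klrk1 (25.2 CPM). Early granulocyte and progenitor markers, a further source of dividing cells, were at 254 ± 27.3 CPM in the WT libraries and 239.5 ± 29.0 CPM in the knockout, with 6 of 8 tested genes lower, 2 of them at an unadjusted p under 0.05. Most of this sum came from Kit and Flt3 (means of 104 and 131 CPM in WT). The granule genes Elane, Mpo and Prtn3 had WT means of 0.908, 3.04 and 1.03 CPM, so the sum says little about granulocyte precursors. Neutrophil markers (11 of 11 tested lower; 939 to 1564 CPM in WT libraries and 532 to 991 CPM in the knockout), classical monocyte markers (10 of 10 lower; 1429 to 1936 CPM in WT libraries and 1069.7 to 1327 CPM in the knockout) and platelet markers (9 of 9 tested lower; 77.6 to 98.6 CPM in WT libraries and 63.8 to 82.9 CPM in the knockout) had estimates in the opposite direction to the mitotic genes. At an unadjusted p under 0.05 by edgeR, 8 of 11 neutrophil, 7 of 10 monocyte and 4 of 9 platelet markers were lower, with median log2 fold changes of -0.65, -0.67 and -0.45. No marker in these lists was at 0 in all libraries. By edgeR 0 of them passed the FDR, and by limma voom 0, while DESeq2 called 8 lower: Mmp8, Mmp9, Lcn2, Csf3r, Ly6c2, Hp, Chil3 and Ppbp. Over all 16979 genes with an adjusted p, DESeq2 called 185, of which 89 were higher and the rest lower. Without WT replicate 5 edgeR called Ppbp lower, in a fit that called 51 of 14891 genes, of which 34 were higher and the rest lower. Of the macrophage markers themselves 7 of 12 had higher and 5 lower estimates at 10185 ± 1226 CPM in the WT libraries and 10252 ± 1031 CPM in the knockout. Only Cd163, the haemoglobin scavenger receptor, had an unadjusted p under 0.05 among these 12 (279 ± 39.8 and 383 ± 23.0 CPM; FDR = 0.135 by edgeR), and DESeq2 called it, as did edgeR without WT replicate 5. The part of these cells in the mitotic values was not tested.

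**Figure D4:**
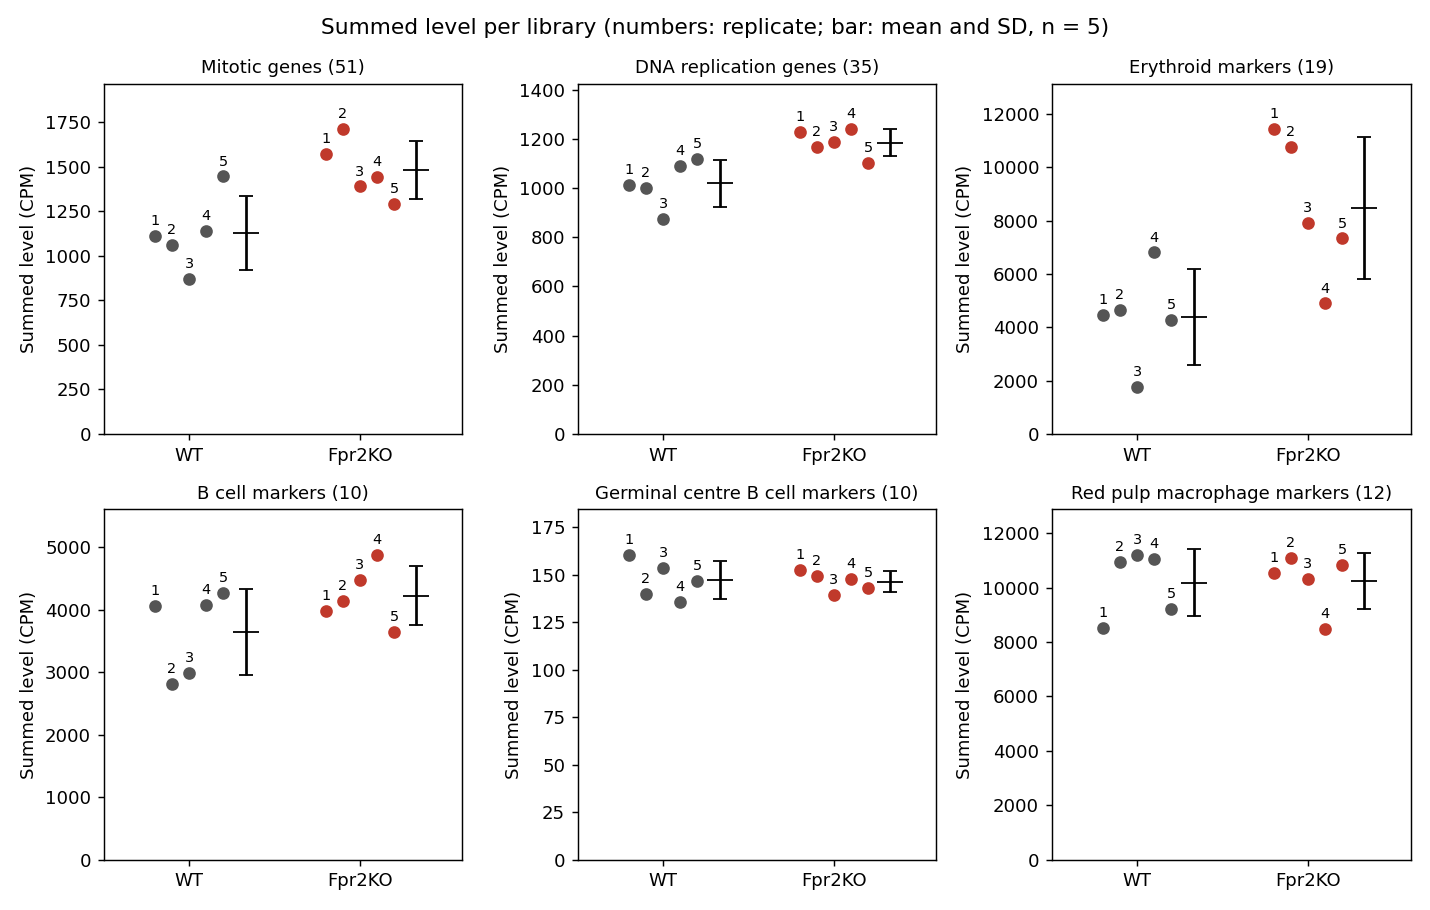
Summed level (CPM) of 6 gene lists in each library; numbers are replicates, bars the mean and SD of 5 libraries. WT replicate 5 reached 1446 CPM for the mitotic genes, above 3 Fpr2KO libraries, and Fpr2KO replicate 4 stood at 4895 CPM for erythroid markers, within the WT range.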

How the data were processed

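RNA of splenic macrophages was sequenced in 10 libraries, and the authors deposited raw read counts per Ensembl gene, not normalised. Per the submitters' processing notes, HTSeq 0.10.0 and FastQC 0.10.1 were used with the builds mm10 and GRCm38. For the aligner, the strand setting and the annotation release, nothing was given in the sources used here. Symbols, coordinates and exon lengths came from GENCODE M21 (GRCm38), which matched 52133 of 55414 identifiers, and promoters from RefSeq (GRCm38.p6).

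The test was that of edgeR 4.0.16 in R 4.3.3 (filterByExpr, TMM, robust quasi-likelihood test, two-sided, no covariate). Benjamini-Hochberg adjustment ran over all 14669 genes that passed the filter. CPM divide each count by the library size after TMM, and log2 CPM used a prior count of 2. The SE is the log2 fold change divided by the square root of F. Both the total counts, 15865820 to 19060188 per library, and the spread between libraries enter the precision. The 20 pairs of libraries within a group differed by more than sampling noise (chi-square per degree of freedom 11.2 to 60.9).

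Groups came from the genotype label. The 51 genes and all lists were chosen with earlier results of these data known. Values in every library are given for the 12 genes with the smallest p, the 3 with the largest and the smallest p of each remaining role. Further lists are named by up to 4 (markers up to 3) smallest p-values. Of 325 listed symbols 323 were matched. Alternatives were other normalisations, other filters, DESeq2 1.42.0, limma 3.58.1 (voom), the replicate number as a block, and leaving out each library. The edgeR fit was tested on simulated data.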

Additional observations from a re-analysis of the deposited data

Results flagged for a closer look

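Among 152 groups of 5 values screened (each mitotic gene and each list, in WT and in Fpr2KO), 9 had 1 library whose gap to its nearest neighbour exceeded Dixon's 95% limit of 0.710 of the range. Chance gives about 1 in 20. For mitotic genes, Fpr2KO replicate 2 was far above the others for Kif4 (15.4 CPM, next 11.8), Ncaph (23.2, next 19.1) and Anln (14.1, next 11.6). Fpr2KO replicate 4 was far above for Nek2 (11.8 CPM, next 9.63). WT replicate 3 was far below for Ndc80 (6.56 CPM, next 11.1) and for the summed regulators of the cell cycle (691.1 CPM, next 774.2). Red pulp macrophage markers were lowest in Fpr2KO replicate 4 (8479 CPM in sum, next 10329), classical monocyte markers highest in Fpr2KO replicate 5 (1327 CPM, next 1131), and platelet markers lowest in WT replicate 5 (77.6 CPM, next 94.5), the library with the highest mitotic level in WT.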

How the results depend on the processing

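The count of 41 mitotic genes higher at an unadjusted p under 0.05 ranged from 31 to 43, the count of 48 higher estimates from 48 to 50, and the median log2 fold change of 0.49 from 0.40 to 0.61 over the 17 alternatives. Genes past the FDR over the whole table numbered 10, 62 with no filter, 64 with the replicate block, 185 with DESeq2, and 8 to 51 when 1 library was left out (26 without WT replicate 4, 51 without WT replicate 5 and 26 without Fpr2KO replicate 2). Mitotic genes past it numbered 0, 3 with no filter (Cdca3, Kif22 and Ccnb1), 9 with DESeq2 and 0 with the replicate block. They numbered 13 without WT replicate 5 and 0 when any other library was left out. A complete order of the groups was found for 6 mitotic genes, for 10 with upper quartile normalisation, and for 6 to 34 when 1 library was left out, with 11 without Fpr2KO replicate 5 and 34 without WT replicate 5. Over the fits that left out 1 library, 3.21% to 9.29% of all genes were higher at an unadjusted p under 0.05. The causes were not tested. Signs turned for Cks2 (log2 fold change -0.019, and from -0.098 without Fpr2KO replicate 2 to 0.031 without WT replicate 1, 0.026 without Fpr2KO replicate 4 and 0.0082 without Fpr2KO replicate 5) and for Pttg1 (-0.041, and from -0.098 without WT replicate 5 to 0.019 without Fpr2KO replicate 4). Same-numbered deviations correlated with r from -0.24 to 0.29 over 5 pairs, and with each other best in 2, those of replicates 2 and 4. Whether some libraries were paired was not tested. The order of the groups was not recomputed for DESeq2, limma voom and the replicate block. The summed level was not recomputed for these settings or for the other filters. The depth leaves Cdc25c with as few as 28 reads.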

Other observations

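In the promoter windows of mitotic genes, 12 of 48 pairs of neighbouring CCAAT boxes (25.0%) started 30 to 36 bases apart, against 14.06% of 2802 pairs in the windows of genes tested. CHR letters within 40 bases of the start were found in 31 of 45 windows (68.89%), against 3.13%. Both ranges were chosen after the matches were seen, and the values are descriptions with no test.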
